A study of Mus musculus with 32 samples.

Results

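The genes described here are 37 genes of the lysosome, listed by name with earlier results of these data known, out of 55341 genes with a row in each count file. They comprise 10 lysosomal membrane proteins (Lamp1, Lamp2, Cd68, Npc1, Laptm5, Laptm4a, Laptm4b, Scarb2, Mcoln1 and Cln3), 9 lipid enzymes and lipid-handling or granulin proteins (Psap, Grn, Npc2, Asah1, Smpd1, Lipa, Ppt1, Gm2a and Pla2g15), and 15 glycosidases and sulfatases (Gaa, Gla, Glb1, Gusb, Hexa, Idua, Ids, Naglu, Sgsh, Neu1, Manba, Man2b1, Fuca1, Arsb and Galns). The others are the peptidases Lgmn and Tpp1 and the transcription factor Tfeb.

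Lysosomes are acidic compartments in which hydrolases break down proteins, lipids and glycans that arrive by endocytosis, phagocytosis and autophagy. Many soluble hydrolases reach them by way of sorting receptors, and the limiting membrane holds heavily glycosylated proteins, transporters and ion channels. Microglia are the phagocytes of the brain parenchyma, and inherited loss of many of these genes causes lysosomal storage disease that affects the brain. The transcription factor TFEB is known to bind elements that contain CACGTG near the start of many lysosomal genes.

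Cortex and hippocampus were taken from 16 female mice aged 15 months, with 1 library per region and mouse, and sequenced with a droplet method that counts the 3′ ends of transcripts by unique molecular identifiers (UMIs). The groups were 5 wild-type mice given plain water (WT-vehicle), 3 wild-type mice given the C5aR1 antagonist PMX205 in the water for 12 weeks (WT-PMX205), 4 transgenic mice given water (Tg2576-vehicle) and 4 given PMX205 (Tg2576-PMX205). The study describes the transgenic animals as hemizygous Tg2576, in which the prion promoter drives human APP with the Swedish mutation, whereas the labels name the strain Arctic. The labelled strain goes against the labelled genotype for mouse 4 of WT-vehicle and mouse 3 of Tg2576-vehicle. C5ar1 deficiency is part of the labelled strain of 5 mice (WT-vehicle 2 and 4, WT-PMX205 3, Tg2576-vehicle 2, Tg2576-PMX205 4) and a GFAP-driven C5a transgene of that of 5 others (WT-vehicle 3 and 5, Tg2576-vehicle 3 and 4, Tg2576-PMX205 1), so the genotype label was used for every group. Microglia and astrocytes had been enriched with CD11b and ACSA-2 beads.

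Of 13917 deposited barcodes 5625 were kept, from libraries of 37205 to 1072049 UMIs. Cell types were chosen by marker genes, none of them among the 37 genes: at least 5 UMIs of the type's markers, making up at least 80% of all marker UMIs of the cell. This gave 1890 microglia with a median of 977 UMIs, 1241 astrocytes with a median of 1056 UMIs, 182 mural cells, 130 endothelial cells and 27 perivascular macrophages, and left 2155 cells unclassed. A further 332 cells lay just under the limit, with a microglial share between 70% and 80%. In microglia the defining marker Csf1r averaged 8085 UMIs per 1000000 UMIs of the same cells (CPM), whereas P2ry12 was nearly absent at 4.52 CPM. Of 12874 barcode sequences 289 occurred in more than 1 library, and 72 microglia carried such a barcode. WT-vehicle mouse 5 and Tg2576-vehicle mouse 4, which both carry the C5a label and lie among 4 mice with many barcode pairs that differ in the first base only, had the lowest summed lysosomal levels of all microglia. The other 2 mice with many such pairs, Tg2576-PMX205 mice 2 and 3, had 24933 and 23376 CPM, and Tg2576-vehicle mouse 3, also with the C5a label, had the highest level (25886 CPM).

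The 37 genes together held 134967 of the 10017205 UMIs in the files. Laptm5 had 21215 UMIs, Lgmn 14050, Npc2 10261, Grn 9836 and Psap 9772, whereas 5 genes had fewer than 100 over all libraries. These were Lamp1 with 91, Npc1 and Gla with 85 each, Sgsh with 12 and Galns with 0, so LAMP1, a main glycoprotein of the lysosomal membrane, was hardly counted here. In the annotation the last 500 bases of Lamp1, Npc1 and Sgsh overlap a gene on the opposite strand (Grtp1, Rmc1 and Card14). The same holds for Grn (Fam171a2, 9836 UMIs), Ppt1 (Cap1, 3075 UMIs) and Arsb (Gm26527, 1525 UMIs), and in all 10 of the 37 genes share exon bases with another gene. The part of these overlaps in the counts was not tested.

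The promoters of the 5 genes that differed between Cst7-positive and Cst7-negative microglia are shown first, followed by Lamp1 and Mcoln1 as 2 examples of the 4 genes that carry the TFEB-type hexamer more than once. Each is the RefSeq sequence (GRCm38.p6) from 250 bases before to 50 bases after the start, 5′ to 3′ on the gene's strand, and capitals mark CACGTG.
Npc2 (chr12:84773063-84773362, minus strand): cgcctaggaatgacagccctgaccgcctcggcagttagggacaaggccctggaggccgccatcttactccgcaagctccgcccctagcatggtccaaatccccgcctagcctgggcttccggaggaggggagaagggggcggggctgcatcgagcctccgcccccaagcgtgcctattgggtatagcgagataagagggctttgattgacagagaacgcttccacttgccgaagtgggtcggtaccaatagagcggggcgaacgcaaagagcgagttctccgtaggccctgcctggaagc
Grn (chr11:102430257-102430556, plus strand): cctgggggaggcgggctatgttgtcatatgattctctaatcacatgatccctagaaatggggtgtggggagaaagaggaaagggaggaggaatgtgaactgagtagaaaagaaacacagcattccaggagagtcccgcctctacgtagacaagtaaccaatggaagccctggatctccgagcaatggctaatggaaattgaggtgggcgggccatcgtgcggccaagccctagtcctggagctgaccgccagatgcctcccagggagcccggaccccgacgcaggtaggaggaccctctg
Cd68 (chr11:69666121-69666420, minus strand): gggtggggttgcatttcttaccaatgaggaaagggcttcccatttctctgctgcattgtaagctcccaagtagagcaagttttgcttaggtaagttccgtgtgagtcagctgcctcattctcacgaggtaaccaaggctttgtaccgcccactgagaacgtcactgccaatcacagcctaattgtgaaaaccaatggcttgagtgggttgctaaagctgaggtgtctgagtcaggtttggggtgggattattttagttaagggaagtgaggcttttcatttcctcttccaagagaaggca
Gusb (chr5:130003000-130003299, minus strand): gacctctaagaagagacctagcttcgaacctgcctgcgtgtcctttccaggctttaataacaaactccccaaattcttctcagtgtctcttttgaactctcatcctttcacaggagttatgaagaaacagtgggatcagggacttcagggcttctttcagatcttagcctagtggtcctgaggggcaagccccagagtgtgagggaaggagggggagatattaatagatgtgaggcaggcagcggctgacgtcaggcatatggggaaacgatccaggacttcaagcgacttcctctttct
Ppt1 (chr4:122835977-122836276, plus strand): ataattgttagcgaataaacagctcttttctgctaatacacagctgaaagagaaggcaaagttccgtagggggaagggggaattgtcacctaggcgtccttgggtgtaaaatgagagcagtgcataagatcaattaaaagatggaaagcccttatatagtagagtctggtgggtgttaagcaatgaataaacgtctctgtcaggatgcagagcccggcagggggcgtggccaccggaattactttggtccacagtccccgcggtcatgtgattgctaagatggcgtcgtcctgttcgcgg
Lamp1 (chr8:13158911-13159210, plus strand): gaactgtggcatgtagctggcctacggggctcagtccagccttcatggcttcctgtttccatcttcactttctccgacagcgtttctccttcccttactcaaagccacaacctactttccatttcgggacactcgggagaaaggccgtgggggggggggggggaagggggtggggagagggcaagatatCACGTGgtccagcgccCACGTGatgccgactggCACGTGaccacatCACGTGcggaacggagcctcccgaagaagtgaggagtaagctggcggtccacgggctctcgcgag
Mcoln1 (chr8:3500269-3500568, plus strand): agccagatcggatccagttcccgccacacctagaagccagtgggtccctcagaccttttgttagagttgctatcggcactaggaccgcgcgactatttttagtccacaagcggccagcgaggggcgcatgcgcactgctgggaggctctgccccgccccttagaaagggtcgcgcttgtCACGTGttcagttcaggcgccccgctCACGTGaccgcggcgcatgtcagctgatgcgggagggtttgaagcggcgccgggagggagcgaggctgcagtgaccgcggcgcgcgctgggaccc

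RefSeq gave 38 promoters for 33 of the 37 genes. CACGTG, which reads the same on both strands, lay in 9 of them (23.7%), against 2349 of all 32851 promoters of that length (7.15%). The genes were Lamp1, Lgmn, Gaa, Gla, Glb1, Naglu, Sgsh, Mcoln1 and Cln3, with 4 copies in Lamp1 and 2 each in Mcoln1, Gla and 1 promoter of Cln3. The longer palindrome TCACGTGA, which contains the hexamer, lay in promoters of Gla, Mcoln1 and Cln3 and in 0.974% of all promoters. None of the 5 promoters printed first held the hexamer in this window.

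Summed over the 37 genes, lysosomal transcripts made up 2.22% of the UMIs of microglia and 2.12% of those of perivascular macrophages. The share was 0.751% in astrocytes, 0.708% in mural cells and 0.464% in endothelial cells. Laptm5, Lgmn, Grn, Npc2 and Psap made up 55.7% of the microglial sum. In astrocytes the leading genes were Psap, Laptm4a, Lamp2, Tpp1 and Npc2, and in mural cells Laptm4a alone made up 33.9%.

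With all cells of a class pooled, 13 genes were highest in microglia and 13 in perivascular macrophages, a class of only 27 cells. Grn had 3236 CPM there and 1932 CPM in microglia, Cd68 1361 and 1071 CPM, and Hexa 2183 and 1357 CPM. Laptm4b, Gaa, Gla, Idua and Smpd1 were highest in astrocytes, Laptm4a (2403 CPM) and Mcoln1 in mural cells, and Ids, Lipa and Tfeb in endothelial cells. These pooled levels are in CPM, the count of 3′ ends with no division by length, and were not tested.

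The first comparison set microglia against astrocytes of the same mouse, in the 12 mice with at least 20 cells of each. The summed level was 22181 ± 2446 CPM (SD, n = 12) in microglia and 7337 ± 720.2 CPM in astrocytes, higher in microglia in 12 of 12 mice, by 2.36 to 4.12 times. Of the 37 genes 30 passed the filter on low counts. In edgeR's quasi-likelihood test with the mouse as a block and Benjamini-Hochberg adjustment over all 6095 genes tested, 20 were higher in microglia, beside 31.4% of all genes tested, and 5 were lower, beside 27.8%. The median log2 fold change was 0.96 over the 30 genes and 0.11 over all genes tested. With size factors of DESeq2 the median of all genes moved by -0.23, to -0.12, and that of the lysosomal genes to 0.74. The share of higher genes among all calls then fell from 53.1% to 43.8%. Lamp1, Npc1, Gla, Sgsh, Manba, Mcoln1 and Galns were not tested.

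**Figure D1:**
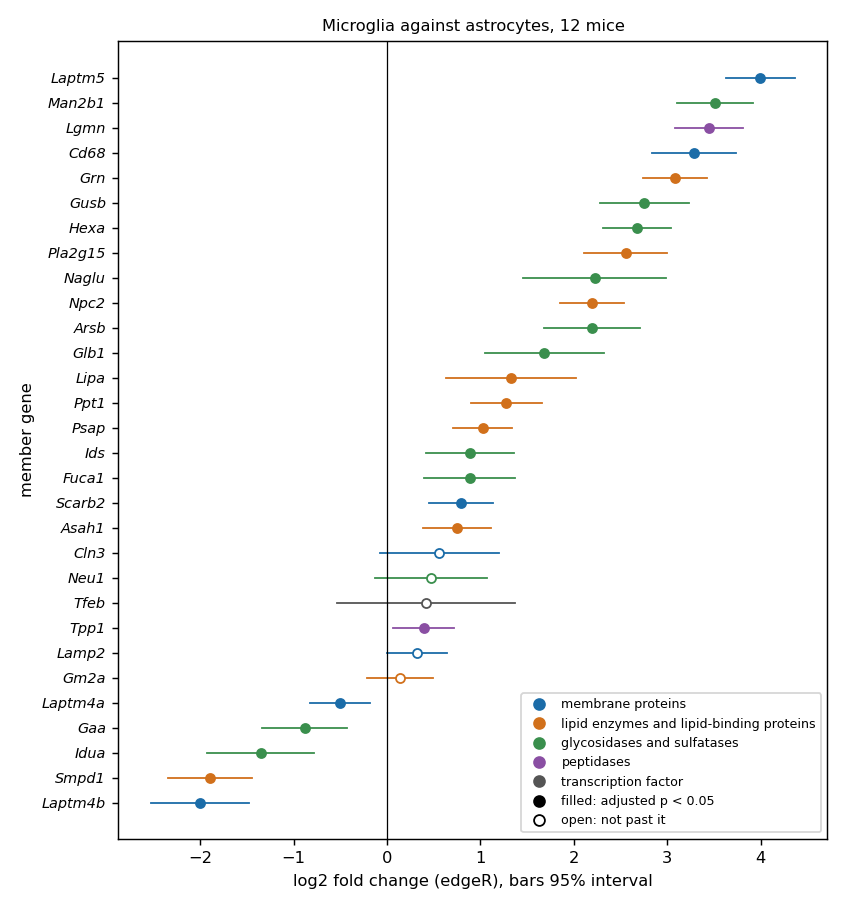
Log2 fold change of each tested lysosomal gene in microglia against astrocytes (x axis), with points for the edgeR estimate over 12 mice, bars for the 95% interval, colours for the role of the gene and filled points for an adjusted p under 0.05. The genes run from Laptm5 at 3.998 to Laptm4b at -2.01.

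Among the membrane proteins, 3 of 7 tested were higher in microglia and 2 were lower, beside 31.4% and 27.8% of all genes tested. Laptm5, a transmembrane protein of haematopoietic lysosomes, had a median of 4188 CPM (3788 to 4907) in microglia and 271 CPM (65.8 to 741) in astrocytes. The cell types did not overlap, and the log2 fold change was 3.998 ± 0.19 (SE, adjusted p = 4.23e-34). How many of all genes tested lacked overlap was not counted, here and for the genes below. Cd68, a macrophage sialomucin much used as a stain for phagocytic lysosomes, had a median of 949 CPM (549 to 1446) in microglia and 112 CPM (0 to 269) in astrocytes, again without overlap (3.28 ± 0.23, adjusted p = 2.34e-23). Scarb2, the receptor that carries glucocerebrosidase to the lysosome, was higher by 0.79 ± 0.17, in 11 of 12 mice.

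The paralogues of Laptm5 went the other way. Laptm4b had a median of 47.7 CPM in microglia and 244 CPM in astrocytes and was lower in each of the 12 mice (-2.01 ± 0.26, adjusted p = 1.88e-10). Laptm4a was lower by a smaller amount, with 514 ± 92.8 CPM (SD, n = 12) against 759.7 ± 156 CPM (-0.50 ± 0.16). Lamp2, which takes part in autophagosome fusion and chaperone-mediated autophagy, had 741 ± 166 CPM in microglia and 606 ± 123 CPM in astrocytes and did not pass edgeR's test (0.33 ± 0.16, adjusted p = 0.0754). Cln3 did not pass it either (adjusted p = 0.128), and the few UMIs of Lamp1 gave 5.64 ± 6.46 and 5.74 ± 8.71 CPM.

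Of the 9 lipid enzymes and lipid-handling proteins, Grn counted with them, 7 were higher in microglia and 1 was lower, beside 31.4% and 27.8% of all genes tested. Grn encodes progranulin, a secreted and lysosomal precursor of granulins, and had a median of 1845 CPM (1213 to 2445) in microglia and 241 CPM (125 to 294) in astrocytes (3.08 ± 0.17, adjusted p = 5.95e-29). Npc2, which binds cholesterol in the lumen, had a median of 1940.3 CPM (1083 to 2656) against 407 CPM (212 to 619.6), a log2 fold change of 2.20 ± 0.17 (adjusted p = 4.39e-20). Psap, the precursor of the saposins that present sphingolipids to hydrolases, was less skewed, with 1682 ± 275 CPM (SD, n = 12) against 862 ± 228 CPM (1.02 ± 0.16). None of these 3 genes overlapped between the cell types, and the share of all genes tested without overlap was not counted.

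The phospholipase Pla2g15 (398 against 72.9 CPM), the thioesterase Ppt1 (424 against 181 CPM), the acid lipase Lipa (92.9 against 34.01 CPM) and the acid ceramidase Asah1 (516 against 321 CPM) were also higher in microglia, with log2 fold changes of 2.56, 1.28, 1.33 and 0.75. Smpd1, the acid sphingomyelinase that makes ceramide, was the exception: its median was 76.5 CPM (36.3 to 164) in microglia and 332 CPM (193 to 447) in astrocytes, without overlap (-1.90 ± 0.23, adjusted p = 6.47e-12). Gm2a, the activator of ganglioside breakdown, had 436 ± 115 and 417 ± 114 CPM, a log2 fold change of 0.14 ± 0.18 with a 95% interval of -0.21 to 0.50.

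Of 11 glycosidases and sulfatases tested, 8 were higher in microglia and 2 were lower, beside 31.4% and 27.8% of all genes tested. Man2b1, the lysosomal alpha-mannosidase, had a median of 1024 CPM (584 to 1744) in microglia and 111 CPM (20.7 to 173) in astrocytes (3.51 ± 0.21, adjusted p = 7.57e-28). Hexa, a beta-hexosaminidase subunit, had 1363 ± 267 CPM (SD, n = 12) against 214 ± 73.3 CPM (2.68 ± 0.18), and Gusb, the beta-glucuronidase, 381 ± 127 against 61.7 ± 34.4 CPM (2.76 ± 0.24). Naglu (2.23), Arsb (2.19), Glb1 (1.69), Ids (0.89) and Fuca1 (0.88), which act on glycosaminoglycans, galactosides and fucosides, were each higher in at least 10 of 12 mice.

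The lower enzymes were Gaa, the alpha-glucosidase that degrades glycogen, with 134 ± 76.7 CPM against 259.6 ± 97.5 CPM (-0.88 ± 0.23), and Idua, the alpha-iduronidase, with 54.9 ± 19.95 CPM against 141 ± 57.8 CPM (-1.35 ± 0.29), which shares exon bases with Dgkq and Slc26a1. The sialidase Neu1 did not pass the edgeR test (adjusted p = 0.178). Both peptidases were higher: legumain (Lgmn), an asparaginyl endopeptidase, had a median of 2933 CPM (2094 to 3346) against 268 CPM (21.6 to 420.4), a log2 fold change of 3.45 ± 0.18. Tpp1 had 642 ± 123 CPM against 506 ± 77.7 CPM (0.39 ± 0.16, edgeR adjusted p = 0.0335), a call lost in 22 of 25 other settings. Tfeb was low in both types, with 33.8 ± 18.2 and 29.4 ± 28.5 CPM.

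Microglial markers were also counted in astrocytes, within the limit set by the gate. The 12 markers summed to a median of 2736 CPM (1122 to 4561) in astrocytes and 38014 CPM (34262 to 41968) in microglia, and Csf1r stood at 4.98% of its microglial level. Laptm5 stood at 7.01%, Lgmn at 9.42%, Man2b1 at 9.44% and Cd68 at 10.5% of their microglial levels, next to Psap at 51.2% and Gm2a at 95.5%. The part of microglial RNA in these low values was not tested.

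In the other lysosomal lists, 9 of 11 tested cathepsins and cystatin C were higher in microglia, beside 31.4% of all genes tested. None were lower, beside 27.8%. The largest changes were those of Ctse (5.56 ± 0.57), Ctss (3.30 ± 0.17) and Ctsh (2.62 ± 0.21). Ctse was higher in 9 of 12 mice, with 121 ± 131 CPM (SD) against 2.15 ± 5.24 CPM, and Ctss and Ctsh in 12 of 12. Of 16 tested subunits of the proton pump that acidifies the lysosome (V-ATPase), a smaller share than of all genes tested was called in either direction: 4 were higher (beside 31.4% of all genes), among them Atp6v0a2 (1.26), Atp6ap1 (1.01) and Atp6v1c1 (0.99), and 2 were lower (beside 27.8%), Atp6v1h and Atp6v1a. Of 21 further hydrolases, membrane proteins and sorting receptors 11 were higher, beside 31.4% of all genes tested. The 2 lower ones, beside 27.8%, were Naaa (-1.82 ± 0.22) and the tetraspanin Cd63. The TFEB relatives Tfe3 (1.63 ± 0.30) and Mitf (0.99 ± 0.44, edgeR adjusted p = 0.0489) were both higher, again beside 31.4% of all genes tested.

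The second comparison lay within microglia of Tg2576 mice, between cells with at least 1 UMI of Cst7 and cells with none. Cst7 encodes cystatin F, an inhibitor of lysosomal cysteine proteases and a marker of the microglial state found near plaques. A Cst7 UMI was present in 152 of 536 microglia of Tg2576-vehicle, 203 of 772 of Tg2576-PMX205, 7 of 489 of WT-vehicle and 1 of 93 of WT-PMX205 mice. Astrocytes carried one in 3.55% of cells against 19.2% of all microglia, or in 2.10% and 13.7% after each cell was thinned to 500 UMIs. Cst7-positive microglia of Tg2576 mice were deeper, with a median of 1098 UMIs against 941.

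In 7 Tg2576 mice with at least 10 cells of each kind, 4 on vehicle and 3 on PMX205, the summed lysosomal level was 26017 ± 5712 CPM (SD, n = 7) in Cst7-positive and 20748 ± 3680.2 CPM in Cst7-negative microglia. It was higher in the positive cells in 7 of 7 mice, by 1.06 to 1.35 times, with the lowest ratio in Tg2576-vehicle mouse 4. Of the 37 genes 26 were tested, among 2968 genes in all. In edgeR with the mouse as a block 5 were higher in Cst7-positive cells, beside 1.95% of all genes tested, and 0 were lower, beside 0.64%. An unadjusted p under 0.05 was found for 11 genes, all with a positive estimate, and the share of all genes at that limit was not counted. DESeq2 called 7 higher and 0 lower, adding Hexa and Man2b1, beside 82 of all 2968 genes called in either direction. The median log2 fold change was 0.39 over the 26 genes and -0.06 over all genes tested, and 20 of the 26 estimates were above 0.

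Npc2 had a median of 3358 CPM (757 to 3775) in Cst7-positive and 1637 CPM (773 to 2046) in negative cells, higher in 6 of 7 mice, with a log2 fold change of 0.85 ± 0.16 (SE, edgeR adjusted p = 0.000177). Tg2576-vehicle mouse 4 was the mouse without the difference, with 757 and 773 CPM. Grn had a median of 2609 CPM (1515 to 4685) against 1799.8 CPM (994 to 1987), higher in 7 of 7 mice (0.77 ± 0.16, edgeR adjusted p = 0.000726). Cd68 had a median of 1633 CPM (808 to 2381) against 985 CPM (537 to 1055), higher in 7 of 7 mice (0.79 ± 0.18, edgeR adjusted p = 0.00181). Over mice the ranges of positive and negative cells overlapped for these 3 genes, and edgeR without the mouse as a block called them too (adjusted p = 0.0403, 0.0240 and 0.0259).

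Gusb had a median of 772 CPM (202 to 899) in positive and 345 CPM (89.6 to 406) in negative cells. It was higher in 6 of 7 mice, again with Tg2576-vehicle mouse 4 as the exception (202 and 379 CPM), and had the largest estimate of the tested genes (1.13 ± 0.23, edgeR adjusted p = 0.000450). Ppt1, which removes palmitate from proteins and whose loss causes a neuronal ceroid lipofuscinosis, had 454 to 867 CPM against 299.9 to 443 CPM, without overlap (0.77 ± 0.21, edgeR adjusted p = 0.0196). Lack of overlap was not counted over all genes tested. Without Tg2576-vehicle mouse 4 all 5 kept an edgeR adjusted p under 0.05 and Hexa joined them (adjusted p = 0.0179), beside 103 of all 3085 genes called in either direction. Without Tg2576-PMX205 mouse 2, which held the most positive cells, 3 calls were left, beside 37 of all 2575 genes called in either direction. Cd68 (edgeR adjusted p = 0.0681) and Ppt1 (0.112) were lost.

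**Figure D2:**
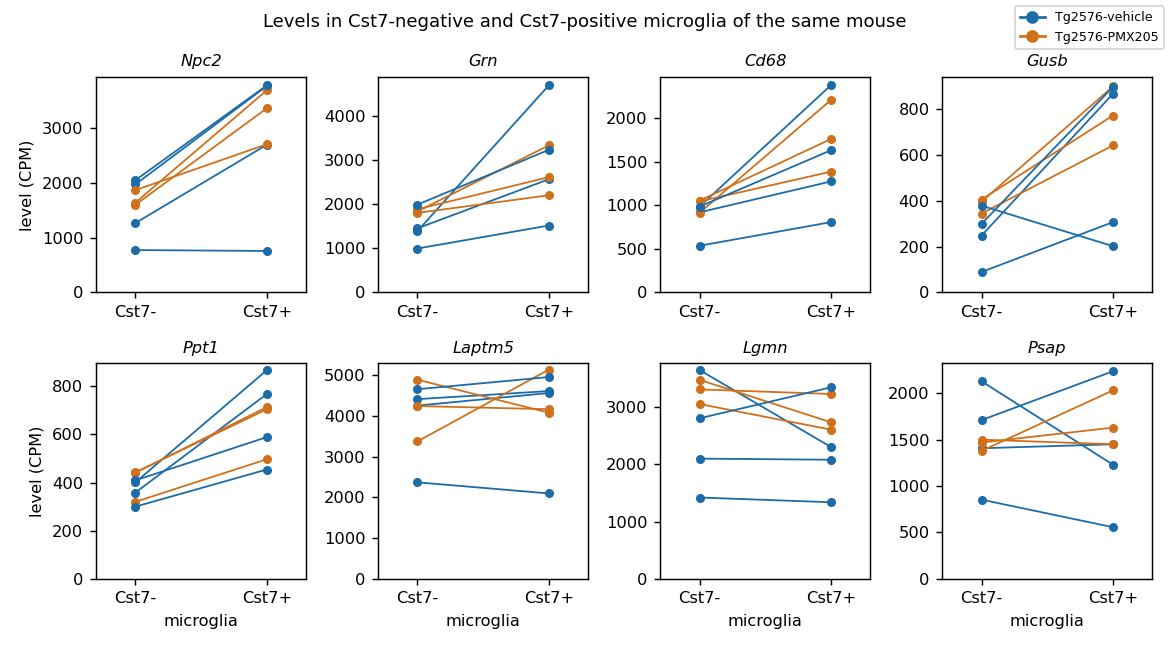
Level (CPM, y axis from 0) of lysosomal genes in Cst7-negative and Cst7-positive microglia, with 1 line per mouse joining its cells of both kinds, coloured by treatment. Lines of Npc2, Grn, Cd68, Gusb and Ppt1 rise in 6 or 7 of 7 mice.

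Lipa and Neu1 had estimates of like size but did not pass the test. Lipa had medians of 107 CPM in positive and 62.4 CPM in negative cells (1.11 ± 0.48, edgeR adjusted p = 0.280), and Neu1 154 and 80.8 CPM (0.86 ± 0.40, edgeR adjusted p = 0.341). Both had the higher value in the positive cells in 7 of 7 mice, in some by little or on few UMIs. In Tg2576-vehicle mice Neu1 had 102.0 and 101.6 CPM in mouse 1, and 2 UMIs against 1 in mouse 2. Lipa had 4 UMIs against 0 in Tg2576-vehicle mouse 4. Hexa lay nearest to the threshold, with 1769 ± 511 CPM (SD, n = 7) against 1230.2 ± 231 CPM (0.52 ± 0.17).

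Laptm5, Psap and Lgmn, among the 5 leading genes of the microglial sum, had estimates near 0. Laptm5 had 4228 ± 1015 CPM in positive and 4026 ± 872 CPM in negative cells (0.06 ± 0.15, 95% interval -0.24 to 0.35). Psap had 1511 ± 549 and 1491 ± 383 CPM (0.03 ± 0.18, 95% interval -0.32 to 0.38), and Lgmn 2520.5 ± 693 and 2831 ± 805 CPM (-0.14 ± 0.16, 95% interval -0.45 to 0.17). Lamp2 had an estimate of 0.32 ± 0.19, and the lowest belonged to Laptm4a (-0.38 ± 0.22) and Scarb2 (-0.33 ± 0.22). By role, 3 of 8 lipid enzymes and lipid-handling proteins (Npc2, Ppt1 and Grn, which is no lipid enzyme but was counted with them), 1 of 10 glycosidases and sulfatases, 1 of 6 membrane proteins and 0 of 2 peptidases were called, all higher, beside 1.95% of all genes tested called higher and 0.64% lower.

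**Figure D3:**
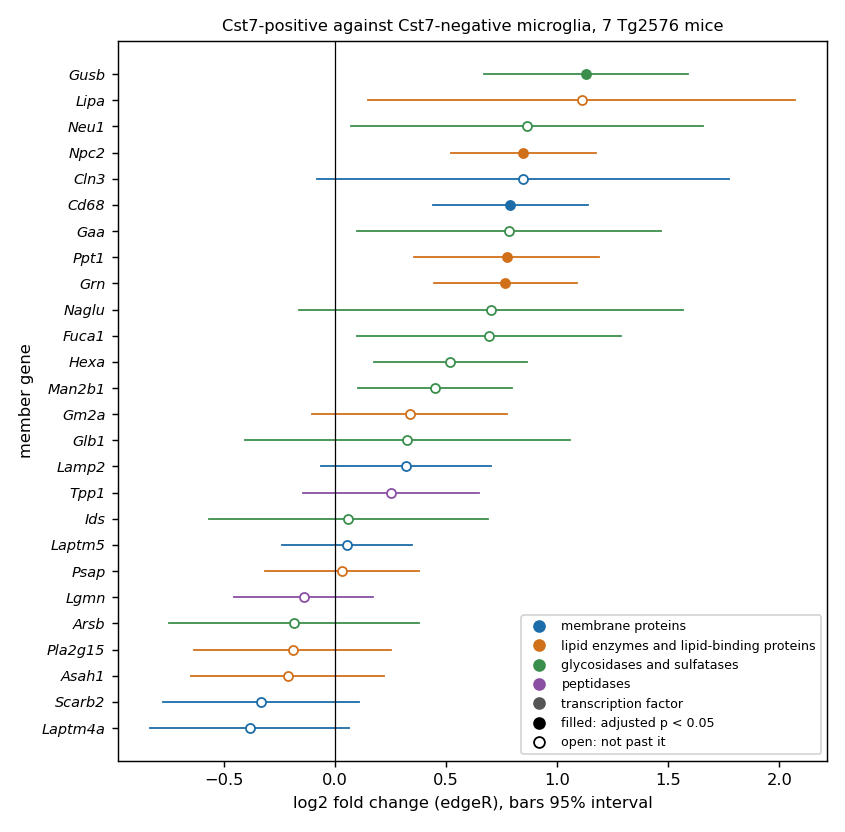
Log2 fold change of the 26 tested lysosomal genes in Cst7-positive against Cst7-negative microglia (x axis), with points for the edgeR estimate over 7 Tg2576 mice, bars for the 95% interval, colours for the role and filled points for an adjusted p under 0.05. Gusb, Npc2, Cd68, Ppt1 and Grn are filled, and 20 points lie right of 0.

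Within each treatment the estimates of the 5 genes were positive and 1 of them passed the test, beside 0.464% (vehicle) and 0.541% (PMX205) of all genes tested that were called higher. In the 4 Tg2576-vehicle mice Grn was called (0.93, edgeR adjusted p = 0.0281), and Npc2 (0.76), Cd68 (0.73), Gusb (1.19) and Ppt1 (0.83) were not. In the 3 Tg2576-PMX205 mice Npc2 was called (0.96, edgeR adjusted p = 0.0433), and Grn (0.58), Cd68 (0.87), Gusb (1.06) and Ppt1 (0.71) were not. Whether the difference depends on treatment was not tested.

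The 12 astrocyte markers summed to a median of 1418 CPM (814 to 2222) in positive and 1099 CPM (425 to 2099) in negative cells, and the 7 perivascular macrophage markers to 26.8 CPM (0 to 91.8) and 31.6 CPM (0 to 96.00). The 12 microglial markers summed to 33788 CPM (27164 to 40341) and 37090.1 CPM (30923 to 43098), and Csf1r was lower in the positive cells in 7 of 7 mice (6257 ± 799 against 8523 ± 749 CPM, SD). With Cst7 counted after thinning, 5 genes were called higher, beside 1.4% of all genes tested, Npc2, Grn, Cd68 and Gusb among them but not Ppt1 (edgeR adjusted p = 0.180).

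Among the other lists, 5 of 11 tested cathepsins and cystatin C were higher in Cst7-positive cells, beside 1.95% of all genes tested, led by Ctse (2.44 ± 0.35), Ctsb (1.04 ± 0.16) and Ctsz (0.94 ± 0.17). Of 13 tested V-ATPase subunits Atp6v1f was higher (1.11 ± 0.29). Of 16 further hydrolases, membrane proteins and sorting receptors Cd63 (1.40 ± 0.24) and Gpnmb (2.90 ± 0.83, higher in 4 of 7 mice) were higher. None of these lists had a gene called lower, beside 0.64% of all genes tested, and the 1 transcription factor tested was not called.

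The third comparison, of all microglia of Tg2576-vehicle with those of WT-vehicle mice, was made in a fit of all 4 groups over the 15 mice with at least 20 microglia, which WT-PMX205 mouse 3 did not reach. The summed level was 19853, 21658, 18418, 22551 and 14483 CPM in WT-vehicle mice 1 to 5 and 21504, 25413, 25886 and 13549 CPM in Tg2576-vehicle mice 1 to 4. The groups overlapped. The means were 19392 ± 3177 CPM (SD, 5 mice) and 21588 ± 5708 CPM (4 mice). Of 27 genes tested edgeR called 0, beside 0.204% of all 3925 genes tested, DESeq2 called 0, and 1 had an unadjusted p under 0.05. In the same fit Cst7 was higher in Tg2576-vehicle by 5.05 ± 0.49 on the log2 scale (edgeR adjusted p = 6.19e-10). The astrocyte markers summed to a median of 1790.0 CPM (1024 to 2799) in WT-vehicle and 1367 CPM (555 to 2146) in Tg2576-vehicle microglia, and their part in these values was not tested.

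**Figure D4:**
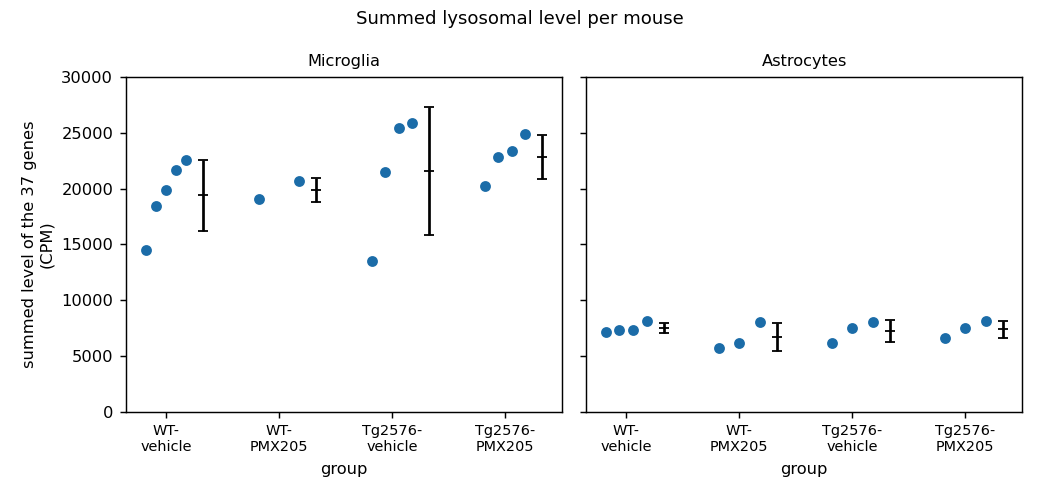
Summed level of the 37 lysosomal genes (CPM, y axis from 0) in microglia and astrocytes, with 1 point per mouse and the mean ± SD of each group beside the points. The lowest microglial values belong to Tg2576-vehicle mouse 4 and WT-vehicle mouse 5, and the groups overlap in both cell types.

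The largest estimates in this comparison belonged to enzymes. Man2b1 had 1019, 993, 777, 893 and 679 CPM in WT-vehicle and 1029, 1629, 1744 and 758 CPM in Tg2576-vehicle microglia, with a log2 fold change of 0.61 ± 0.28 (edgeR adjusted p = 0.999). Gaa had 166, 59.1, 82.4, 156 and 27.2 CPM against 145, 312, 132 and 107 CPM (0.61 ± 0.43). Asah1 had 461, 520.2, 565, 303 and 163 CPM against 625.2, 485, 577 and 651 CPM (0.56 ± 0.31). For each of the 3 genes the groups overlapped.

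Of the genes that were higher in Cst7-positive cells, Cd68 had 807, 792, 848, 852 and 761 CPM in WT-vehicle and 1047, 1300.1, 1215 and 641 CPM in Tg2576-vehicle microglia. All Tg2576-vehicle mice but mouse 4 lay above the WT-vehicle values (0.44 ± 0.26, 95% interval -0.09 to 0.97). Npc2 had 1363 ± 497 CPM (SD, 5 mice) against 1893 ± 836 CPM (4 mice), an estimate of 0.52 ± 0.29 with a 95% interval of -0.05 to 1.10, and Grn 1566 ± 304 against 1899 ± 525.8 CPM (0.34 ± 0.25, 95% interval -0.16 to 0.84). Gusb and Ppt1 had estimates of 0.25 ± 0.30 and 0.39 ± 0.29. Laptm5 (3933 ± 770.3 against 3959.8 ± 1144 CPM), Lgmn (2479 ± 681 against 2456 ± 886 CPM), Psap (1479.8 ± 548 against 1495 ± 555 CPM) and Lamp2 (693 ± 197 against 785 ± 333 CPM) had estimates of 0.08, 0.03, 0.05 and 0.30.

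In microglia without a Cst7 UMI edgeR called 0 of 25 genes between the same groups, beside 0.0% of all 3079 genes tested, DESeq2 called 0, and 1 had an unadjusted p under 0.05, Asah1 (0.57 ± 0.28). Lipa (-1.01 ± 0.62) and Gaa (0.70 ± 0.46) had larger estimates with larger errors. The estimates of Cd68, Grn, Npc2, Gusb and Ppt1 were 0.12, -0.04, 0.16, -0.31 and 0.03 here, and the median was 0.03 over the tested genes and 0.04 over all genes.

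The effect of PMX205 was compared in Tg2576 microglia in the same fit. The summed level was 22816, 24933, 23376 and 20195 CPM in Tg2576-PMX205 mice 1 to 4, within the range of Tg2576-vehicle. Of 27 genes edgeR called 0, beside 0.0% of all genes tested, DESeq2 called 0, and 0 had an unadjusted p under 0.05. Smpd1 had 98.1, 69.3, 113 and 19.4 CPM on vehicle and 46.3, 73.7, 36.3 and 73.6 CPM on PMX205 (-0.57 ± 0.54). Asah1 (-0.44 ± 0.32) had 432, 579, 472 and 147 CPM and Gusb (0.41 ± 0.31) 455, 603, 472 and 552 CPM on PMX205. These were the 3 largest estimates, and in each gene the groups overlapped.

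For the genes followed through every comparison the 95% intervals included 0. They ran from -0.42 to 0.68 for Cd68, from -0.41 to 0.64 for Grn, from -0.34 to 0.87 for Npc2, from -0.26 to 0.86 for Lgmn, from -0.67 to 0.43 for Laptm5, from -0.65 to 0.56 for Psap and from -0.70 to 0.50 for Lamp2 on the log2 scale.

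**Figure D5:**
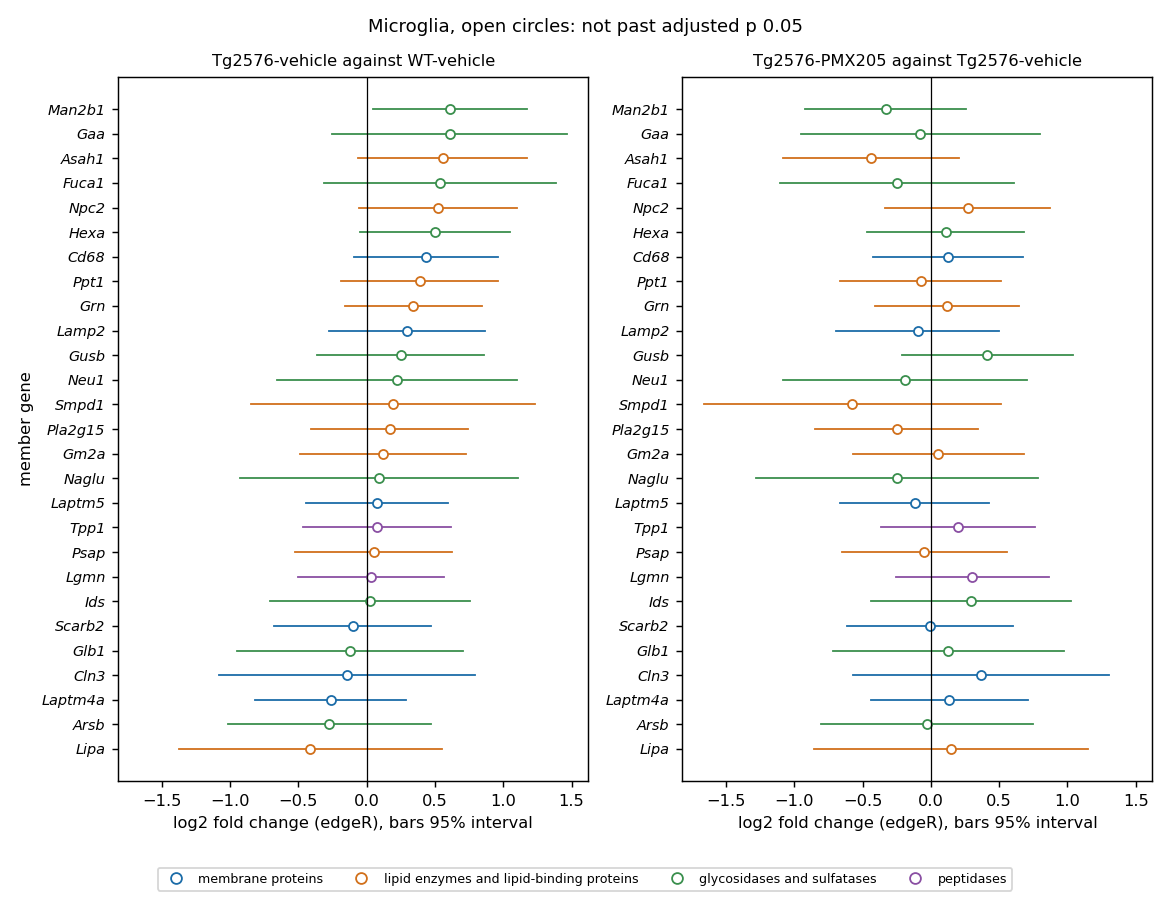
Log2 fold change (x axis) of the 27 tested lysosomal genes in microglia of Tg2576-vehicle against WT-vehicle mice and of Tg2576-PMX205 against Tg2576-vehicle mice, with points for the edgeR estimate and bars for the 95% interval. edgeR called 0 of 27 genes in either comparison, and both use the same Tg2576-vehicle mice.

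In wild-type microglia only 2 mice on PMX205 could be used, with summed levels of 20667 and 19102 CPM. Of 27 genes edgeR called 0, beside 0.0% of all genes tested, DESeq2 called 0, and 2 had an unadjusted p under 0.05. The largest estimates were those of Lipa (-1.65 ± 0.83, 54.8 and 17.2 CPM on PMX205), Gaa (-1.63 ± 0.80, 54.8 and 17.2 CPM) and Ids (0.99 ± 0.45, 274 and 378 CPM), a sulfatase of heparan and dermatan sulfate breakdown. The levels of Lipa and Gaa on PMX205 rested on 3 UMIs and 1 UMI of each gene. For the difference of the PMX205 effect between Tg2576 and wild-type microglia edgeR called 0 of 27 genes, beside 0.0% of all genes tested, DESeq2 called 0, and 0 had an unadjusted p under 0.05. The largest differences were those of Lipa (1.79 ± 0.97), Gaa (1.56 ± 0.92) and Smpd1 (-1.52 ± 0.86).

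Hippocampal and cortical microglia were compared within the 8 mice that had at least 20 of them in each region. The summed level was 22026 ± 2152 CPM (SD, n = 8) in cortex and 23718 ± 2282 CPM in hippocampus, higher in hippocampus in 6 of 8 mice. edgeR called 0 of 27 genes, beside 0.173% of all 3468 genes tested, DESeq2 called 0, and 3 had an unadjusted p under 0.05. The share of all genes under that unadjusted limit was not counted. Npc2 had medians of 1787 CPM (1199 to 2238) in cortex and 2598 CPM (1394 to 3147) in hippocampus, with the higher value in hippocampus in 7 of 8 mice (0.36 ± 0.12, edgeR adjusted p = 0.474). Lgmn had the higher value in hippocampus in 8 of 8 mice, with medians of 2813 and 3091 CPM (0.17 ± 0.11, edgeR adjusted p = 0.942). Besides Npc2, the estimates with an unadjusted p under 0.05 were those of Gusb (0.38 ± 0.19) and Laptm4a (-0.38 ± 0.18).

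In astrocytes 22 genes were tested in 13 mice. Between Tg2576-vehicle and WT-vehicle edgeR called 0, beside 0.0% of all 2854 genes tested, DESeq2 called 0, and 0 had an unadjusted p under 0.05. The summed level was 7489.5 ± 459 CPM (SD, n = 4) in WT-vehicle and 7229.8 ± 949 CPM (n = 3) in Tg2576-vehicle. Neu1 (0.73 ± 0.70), Man2b1 (0.62 ± 0.56) and Hexa (-0.60 ± 0.40) had the largest estimates, with Hexa at 281, 259, 247 and 221 CPM in WT-vehicle and 235, 43.1 and 194 CPM in Tg2576-vehicle mice. Between Tg2576-PMX205 and Tg2576-vehicle edgeR called 0 of 22, beside 0.0% of all genes tested, DESeq2 called 0, and 0 had an unadjusted p under 0.05. The summed level on PMX205 was 7383 ± 779 CPM (n = 3), and Fuca1 (0.61 ± 0.58), Laptm5 (-0.50 ± 0.43) and Lgmn (0.45 ± 0.43) had the largest estimates. In the comparisons by genotype, treatment and region, edgeR called 0 genes of the protease, V-ATPase, further hydrolase and transcription factor lists.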

How the data were processed

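The deposited values are UMI counts per gene and barcode, 1 table per library, made by the authors with kallisto and bustools (kb_python, SureCell settings) on mm10; the labels also name bcl2fastq 2.18.0.12 and Seurat. Barcodes with at least 500 UMIs, 300 genes and at most 5% mitochondrial UMIs were kept, and the top 6% by Scrublet score (340 cells) were removed as doublets. Counts were summed per mouse and cell type and tested with edgeR 4.0.16 (quasi-likelihood, TMM, filterByExpr, Benjamini-Hochberg over all genes tested, threshold 0.05), with the mouse as a block where both sums came from the same mouse, a pairing given by the animal. DESeq2 1.42.0 and other filters, gates and subsets were alternatives. Counts of genes with an unadjusted p under 0.05 are given without the share of all genes at that limit. The tests were checked on simulated data. The mouse is the replicate. CPM are counts per 1000000 UMIs of the summed cells, and sums per mouse held 13020 to 461397 UMIs. Named genes were Lamp1, Lamp2, Cd68, Psap, Grn, Npc2, Lgmn and Laptm5, every called gene and the 3 largest estimates per comparison, with up to 3 per other list; genes named beyond these (such as Hexa, Laptm4a and Scarb2 in the second comparison) were chosen after their values were seen. The genes and lists were chosen with earlier results of these data known. Some genes of the other lists are not reported here by name.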

Additional observations from a re-analysis of the deposited data

Results flagged for a closer look

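Of 124 groups of 4 to 10 mice, 11 held a mouse far from the others by Dixon's criterion, which chance gives in about 1 of 20 groups. In WT-vehicle microglia these were Lamp1 in mouse 4 (16.4 CPM from only 2 UMIs, others 0 to 3.60), Fuca1 in mouse 5 (0 CPM, others 141 to 197) and Arsb in mouse 2 (686 CPM, others 177 to 302). In Tg2576-vehicle microglia they were Laptm5 in mouse 4 (2263 CPM, others 4362 to 4759) and Fuca1 in mouse 3 (246 CPM, others 185 to 191), and in Tg2576-PMX205 microglia Gaa in mouse 3 (187 CPM, others about 147). In WT-vehicle astrocytes Psap in mouse 4 was 1079 CPM (others 827 to 859), Grn in mouse 4 was 125 CPM (others 247 to 257), and the summed level in mouse 1 was 8171 CPM (others 7169 to 7323). The ratio of Cst7-positive to Cst7-negative microglia in Tg2576-vehicle mouse 2 was 3.38 for Grn (others 1.22 to 1.82) and 6.86 for Neu1 (others 1.004 to 3.17). That Neu1 ratio rested on 2 UMIs in the positive and 1 in the negative cells.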

How the results depend on the processing

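Of the counts of called genes and the summed levels, 362 alternative values stayed within their limits. The other 6 did not, all of them the count of 5 genes higher in Cst7-positive microglia. A count was judged by its ratio to the main count, and a mean summed level by a move of less than its SD over mice. Leaving 1 mouse out cannot move a mean that far, and counts without a called gene stayed so. The number 362 therefore says little about how stable the results are. The count of 5 stood beside 77 of all 2968 genes tested, called in either direction. It was 3 without the filter on low counts (beside 59 of 16473), 2 in cortex only (29 of 2339), and 1 each in Tg2576-vehicle (10 of 2155) and Tg2576-PMX205 mice (19 of 3513). Without the 3 of its 7 mice with many barcode pairs that differ in the first base only it was 3 (28 of 2356), an alternative chosen after seeing the data. With 1 mouse left out it ranged from 3 (37 of 2575) to 6 (103 of 3085). Cd68 and Ppt1 lost their calls most often, in 6 and 10 of 24 alternatives. Without the replicate block the count was 5 there (beside 35 of all 1402 genes). For microglia against astrocytes it was 22 (1745 of 2501) in place of 25 (3608 of 6095), and the lowest count was 18 in hippocampus only (1444 of 2411). Without the mice whose strain and genotype labels conflict the counts of the Cst7 and cell type comparisons were 5 (60 of 2600) and 24 (2683 of 4249). The sign changed for Smpd1 (log2 0.0262 with the first-base batch as a covariate), Asah1 (0.106) and Gusb (-0.0847, both in hippocampus only) under PMX205 in Tg2576 microglia, none of which had passed the test. In astrocytes under PMX205 it changed for Laptm5 (0.0304 with the stricter gate, 0.0778 without Tg2576-vehicle mouse 1) and Lgmn (-0.463 with the first-base covariate). The lowest Laptm5 estimate was -0.775 when 1 mouse was left out and -7.10 over all 24 alternatives. The cause was not tested. The depth of some sums, down to 12 cells, limits the genes of low level, and WT-PMX205 microglia rested on 2 mice.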
